A study of Homo sapiens with 6 samples.

Results

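The GNAS complex lies on human chromosome 20 and was examined as the CpGs between positions 57410000 and 57490000 of the hg19 build, in DNA of PC-3, a line established from a human prostate carcinoma. The cells had been given 160 µM S-adenosylmethionine (SAM), the methyl donor used by DNA methyltransferases, or the vehicle PBS, each for 5 days, with 3 bisulfite libraries per group. A CpG was kept when at least 10 reads covered it in 2 or more SAM and 2 or more control libraries, with both strands joined. By this rule 243 of the 412 CpGs listed in the window were members, of 686608 members in the whole series, and 153 of them had at least 10 reads in all 6 libraries. The other 169 listed CpGs of the window had too few libraries and are not described. Of the members, 25 passed with exactly 2 libraries in each group and had a median level of 61.1%, while 48 CpGs with 3 libraries in all were not members and had a median of 12.3%.

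GNAS encodes the stimulatory G protein alpha subunit, which links hormone receptors to adenylyl cyclase. The complex starts transcripts from several promoters that are methylated on one parental allele. NESP55, a neuroendocrine secretory protein, is made from the maternal allele and its promoter is methylated on the paternal one. The antisense RNA GNAS-AS1, the long G protein form XLas and the non-coding first exon A/B have promoters methylated on the maternal allele and are transcribed from the paternal one. The main GNAS promoter further downstream is known to be free of methylation on both alleles, and loss of the exon A/B methylation is found in a form of pseudohypoparathyroidism. A differentially methylated element in a cell with both parental alleles therefore reads at an intermediate level. PC-3 cells have an abnormal chromosome number, the number of copies of each parental allele at this locus was not measured, and bisulfite reads here were not assigned to alleles.

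The elements were drawn by general knowledge of the locus in hg19, since no annotation of that build was used, so their limits are approximate and no exon or intron status is given. NESP55 held 43 members from 57414689 to 57418273, GNAS-AS1 held 11 from 57425933 to 57426970, and XLas held 55 from 57429286 to 57431141. Exon A/B held 62 members from 57463752 to 57464927, the GNAS promoter held 62 from 57465391 to 57467664, and 10 lay elsewhere in the window. Of the 6 transcript starts that RefSeq assigns to GNAS, 3 could be tied to measured CpGs, because every listed CpG over the sequence fell on a CG of it at only 1 offset, with the same shift between builds for all of them. The 250 bases before each start are shown from the RefSeq table (GRCh38.p14, plus strand, 5′ to 3′), with the CGs that are members in capitals and all other bases in lower case. They show that fewer than 1 in 2 of the CGs of each promoter were measured, and where the measured ones stand.
NESP55 start, chr20:58839498-58839747: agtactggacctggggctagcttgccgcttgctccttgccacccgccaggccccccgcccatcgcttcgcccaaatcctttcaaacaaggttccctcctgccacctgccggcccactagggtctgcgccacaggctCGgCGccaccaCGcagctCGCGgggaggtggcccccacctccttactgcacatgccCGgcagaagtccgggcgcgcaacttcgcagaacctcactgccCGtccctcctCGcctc
second start in the NESP55 element, chr20:58841370-58841619: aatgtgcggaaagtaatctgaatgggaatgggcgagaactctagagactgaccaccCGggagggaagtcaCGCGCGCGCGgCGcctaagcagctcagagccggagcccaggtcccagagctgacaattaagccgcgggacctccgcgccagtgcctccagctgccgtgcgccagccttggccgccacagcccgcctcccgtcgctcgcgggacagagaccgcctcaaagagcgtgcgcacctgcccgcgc
exon A/B start, chr20:58888930-58889179: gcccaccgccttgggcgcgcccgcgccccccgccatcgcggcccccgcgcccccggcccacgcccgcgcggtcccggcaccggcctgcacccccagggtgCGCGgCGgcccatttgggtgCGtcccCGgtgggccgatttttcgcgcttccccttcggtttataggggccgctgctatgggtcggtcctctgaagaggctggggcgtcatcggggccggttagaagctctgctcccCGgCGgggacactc
The first sequence holds 19 CGs, of which 8 were members with mean levels of 38.1 to 73.2% over the 6 libraries. The second holds 27, of which 7 were members at 89.6 to 100%, so the measured CGs before these neighbouring starts read at different levels. Those of the first were read on the minus strand only and those of the second on the plus strand only. Strand and promoter therefore cannot be told apart in this difference. The third holds 33, of which 7 were members at 50.1 to 77.4%. Means over the members shown were 57.2% with SAM and 62.0% in controls for the first sequence, 94.9% with SAM and 96.5% in controls for the second, and 60.6% with SAM and 57.1% in controls for the third.

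Between 33056018 and 183523792 reads covered the listed positions of each library. At the 153 CpGs shared by all libraries the median depth was 63, 41 and 122 reads in SAM replicates 1 to 3, against 125, 37 and 98 reads in control replicates 1 to 3, so SAM replicate 2 and control replicate 2 carry the largest counting error. SAM replicate 2 also had the fewest members, 180 of 243. Read coverage put SAM replicate 1 and control replicates 1 and 3 in one set (coverage batch A) and SAM replicates 2 and 3 and control replicate 2 in another (coverage batch B), so differences within each batch are given beside the pooled ones. Whether replicates came from separate cultures is not stated in the labels, and p-values therefore measure the spread between these libraries, which may be technical.

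The methylation level stepped up and down along the complex, and the group means of the elements had the same order with SAM and in controls. GNAS-AS1 was the most methylated of the 5 elements, NESP55 came next, XLas and exon A/B were intermediate, and the GNAS promoter was lowest. Over the 6 libraries GNAS-AS1 exceeded NESP55 by 11.5 percentage points ± 2.59 (SD), and XLas lay below GNAS-AS1 by -22.1 points ± 4.68 (SD). The GNAS promoter lay below exon A/B by -38.2 points ± 8.24 (SD). Each of these 3 steps had the same sign in 6 of 6 libraries, with an exact two-sided sign-flip permutation p of 0.03125, the smallest that 6 libraries can give, and 0.0417 after Benjamini-Hochberg adjustment over the 4 neighbouring pairs. Exon A/B minus XLas was -5.48 points ± 8.38 (SD) and negative in 4 of 6 libraries (exact sign-flip permutation p = 0.1875, adjusted p = 0.1875), so these neighbours did not differ beyond their spread. With at least 20 reads per CpG the test of exon A/B against XLas passed and that of the GNAS promoter against exon A/B did not, with -15.4 points for exon A/B minus XLas (adjusted exact sign-flip permutation p = 0.0417) and -5.21 points for GNAS promoter minus exon A/B (adjusted p = 0.25), where 15 CpGs of the GNAS promoter remained and only 7 of these were under 20%.

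**Figure D1:**
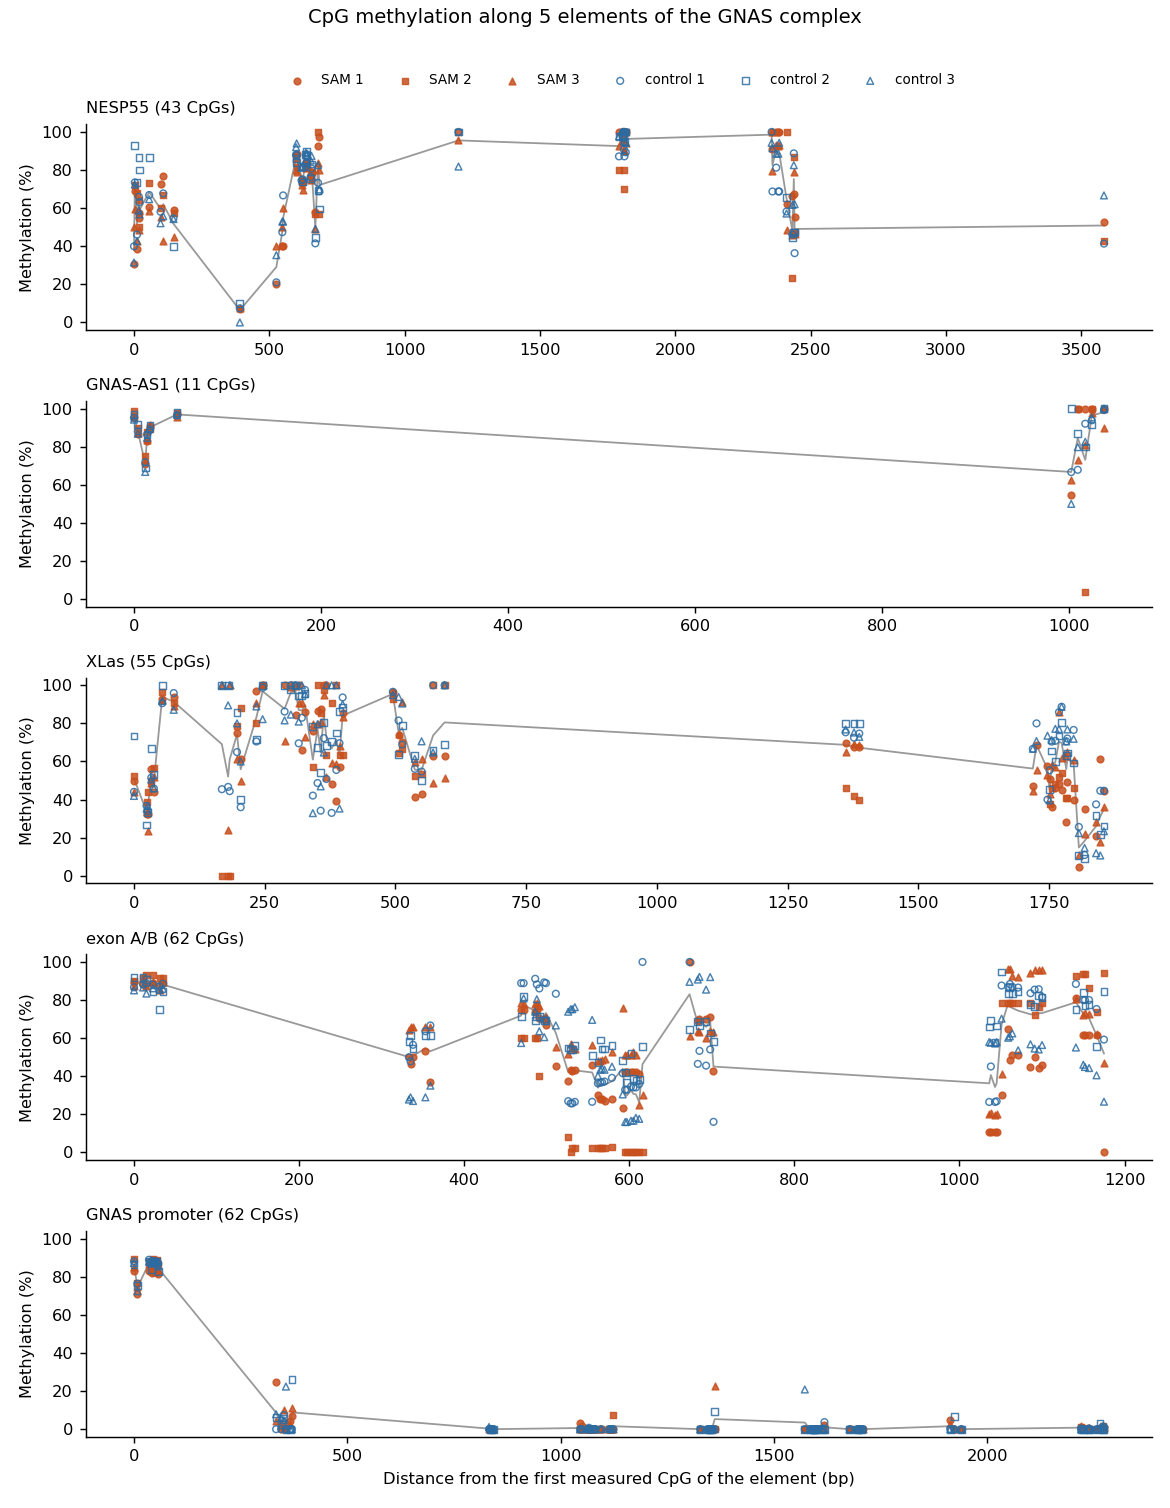
Methylation (%) of every member CpG in the 5 named elements against its distance in bp from the first measured CpG of the element, with filled symbols for SAM replicates 1 to 3, open symbols for control replicates 1 to 3, and a grey line through the mean over libraries. Levels are high across GNAS-AS1, spread widely in exon A/B, and drop from about 84.6% to 5.33% between neighbouring clusters of the GNAS promoter. The lower of these clusters has no values from SAM replicate 2.

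Among the 243 members, 57 had a mean level under 20%, 124 lay at 20 to 80% and 62 were over 80%. Exon A/B had 55 of its 62 members at 20 to 80%, and XLas had 39 of 55. NESP55 divided into 22 members at 20 to 80% and 20 over 80%. GNAS-AS1 had 8 of 11 over 80%. The GNAS promoter had 54 of 62 under 20%, and these made up all but 3 of the low members of the complex.

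The complex held far more CpGs of intermediate methylation than the rest of the series. The share of CpGs at 20 to 80% was 51.6, 39.2 and 49.0% of the 153 CpGs in SAM replicates 1 to 3, against 43.8, 46.4 and 44.4% in control replicates 1 to 3. Over the 336418 other CpGs it was 12.3 to 13.7% in the 6 libraries. The difference, complex minus rest, was 32.5 points ± 4.07 (SD over 6 libraries), positive in 6 of 6 (exact two-sided sign-flip permutation p = 0.03125). In windows with 40 or more listed CpGs per kb the complex had 84 CpGs with a share of 50.8%, against 11.2% for 130823 other CpGs, a difference of 39.6 points (exact sign-flip permutation p = 0.03125). With limits of 30 and 70% the difference was 22.3 points. CpGs under 20% made up 14.4 to 26.1% of the complex and 54.5 to 55.3% of the rest, while those over 80% made up 32.7 to 41.2% of the complex and 31.8 to 32.4% of the rest. The mean level of the complex was above that of the rest by 21.6 points ± 2.55 (SD), also in 6 of 6 libraries (exact sign-flip permutation p = 0.03125).

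**Figure D2:**
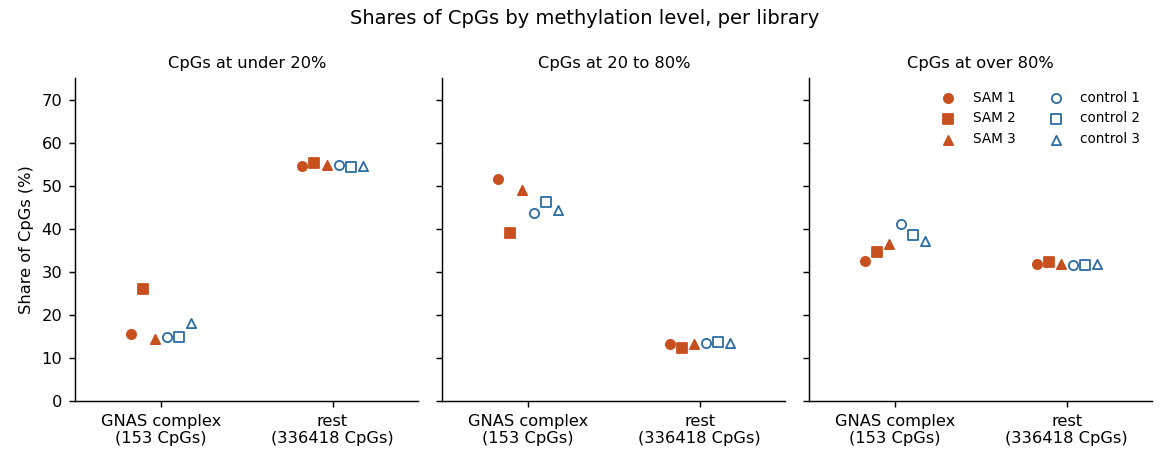
Share of CpGs (%) at a methylation level under 20%, at 20 to 80% and over 80% in each library, for the 153 CpGs of the GNAS complex and the 336418 other CpGs with at least 10 reads in all 6 libraries. All 6 libraries have between 39.2 and 51.6% of the complex at 20 to 80%, against 12.3 to 13.7% of the rest.

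The NESP55 element was not uniform. Its first 9 members, 57414689 to 57414835, averaged 58.8%, and the 15 members from 57415215 to 57415374 averaged 71.5%. The single member between them, 57415080, stood at 6.45%, the only member of the element under 20%, and was read in 5 libraries. The 7 members from 57416481 to 57416506 averaged 95.7%, and CpG 57416503 among them was at 100% in all 6 libraries with 20 to 123 reads each. The last cluster of several members, 57417045 to 57417130, averaged 76.2%. The lowest CpG shared by all libraries, 57417122, read 66.3, 23.1 and 46.0% in SAM replicates 1 to 3, against 46.1, 44.4 and 61.7% in control replicates 1 to 3, with the lowest value in SAM replicate 2. The element mean was 78.4, 75.7 and 72.8% in SAM replicates 1 to 3, against 74.7, 78.5 and 78.9% in control replicates 1 to 3, and the groups overlapped.

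GNAS-AS1 was methylated at a similar level in all libraries over its first cluster. The 6 members from 57425933 to 57425979 averaged 87.3, 89.7 and 87.9% in SAM replicates 1 to 3, against 87.8, 88.7 and 86.5% in control replicates 1 to 3, with 78 to 1969 reads per CpG and library. Within this cluster CpG 57425945 was the lowest of the element among those shared by all libraries, at 73.0% ± 2.0 with SAM, against 69.2% ± 2.58 in controls (SD, n = 3 each), so its dip relative to its neighbours recurred in all libraries. The second cluster, 57426935 to 57426970, averaged 83.8% and ended in the highest CpG of the element, 57426970, at 89.8 to 100% with SAM and 99.2 to 100% in controls. In this cluster CpG 57426950 read 100, 3.57 and 80.7% in SAM replicates 1 to 3, against 92.1, 79.8 and 82.6% in control replicates 1 to 3, and SAM replicate 2 stood apart with 28 reads. This CpG was singled out after its values were seen.

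XLas held 3 clusters of members. The 36 members from 57429286 to 57429880 averaged 72.3%, the 3 from 57430647 to 57430673 averaged 67.9%, and the 16 from 57431005 to 57431141 averaged 49.1%, each over the libraries that read them. At the CpGs shared by all libraries the 3 clusters, in genome order, averaged 68.8, 59.4 and 50.1% with SAM, against 66.5, 76.4 and 69.8% in controls. At these shared CpGs the later clusters were thus not the lower ones in controls. Over all members that each control read, the last cluster was the lowest. It averaged 58.8, 47.0 and 54.2% in control replicates 1 to 3, against 66.6, 75.5 and 76.6% in the first cluster. The highest shared CpG of XLas, 57429532, lay in the first cluster. It was at 100% in the 3 SAM libraries and at 98.7, 100 and 82.2% in control replicates 1 to 3. The lowest of XLas, 57429310, lay in the first cluster too. It was at 34.8% ± 3.36 with SAM, against 32.9% ± 5.42 in controls (SD, n = 3 each), and the groups were close there. Levels within the first cluster thus ranged widely between CpGs.

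Exon A/B had widely differing values between libraries. Its first 6 members, 57463752 to 57463787, averaged 88.2%, and after 298 bp without a member the next 5 averaged 51.8%. The 32 members from 57464221 to 57464454 averaged 51.2%. At the 21 of these shared by all libraries the mean was 46.5, 14.6 and 56.8% in SAM replicates 1 to 3, against 46.0, 54.8 and 49.7% in control replicates 1 to 3, and only SAM replicate 2 stood far from the others. The last 19 members, 57464788 to 57464927, averaged 64.1%, and their 15 shared CpGs read 50.7, 82.0 and 80.5% in SAM replicates 1 to 3, against 82.4, 80.3 and 52.5% in control replicates 1 to 3. Here SAM replicate 1 and control replicate 3 were low, so the library that read low changed within the element. The highest shared CpG, 57463763, read 88.6 to 91.7% with SAM and 86.6 to 91.7% in controls. The lowest, 57464364, read 41.2, 0 and 25.0% in SAM replicates 1 to 3, against 35.9, 38.3 and 17.6% in control replicates 1 to 3.

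Over CpGs at 20 to 80%, the median SD between the 6 libraries was 18.3 points at 36 CpGs of exon A/B, 14 points at 30 of XLas and 10.9 points at 15 of NESP55. It was 11.3 points at 44923 CpGs of the rest of the series. The median SD that counting error alone would give was 7.29 points for exon A/B and 6.05 points for the rest. The range over the 6 libraries passed 50 points at 17 of the 36 exon A/B CpGs (47.2%), against 23.8% of the CpGs of the rest. SAM replicate 2 was the lowest library at 20 of these 36 CpGs. This spread is given as a description, since neighbouring CpGs share reads.

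Levels in exon A/B were also read strand by strand. Of the 243 members, 56 had at least 10 reads on the plus strand only in any library, 85 on the minus strand only, and 100 on both strands in at least 1 library. At 57464307 to 57464364 the plus strand averaged 50.8, 2.27 and 42.7% in SAM replicates 1 to 3, against 31.1, 34.6 and 30.9% in control replicates 1 to 3. At 57464278 to 57464307 the minus strand averaged 43.3, 2.97 and 56.5% in SAM replicates 1 to 3, against 26.3, 54.5 and 75% in control replicates 1 to 3. SAM replicate 2 was thus near 0 on either strand over this stretch, with up to 49 reads per CpG. At 57464788 to 57464803 the minus strand averaged 10.6 and 8.24% in SAM replicates 1 and 3, with SAM replicate 2 below 10 reads, and 99.0, 99.0 and 99.4% in control replicates 1 to 3. At 57464788 to 57464797 the plus strand read 27.3% in SAM replicate 3 and 21.1, 39.2 and 41.3% in control replicates 1 to 3, with the other 2 SAM libraries below 10 reads. The gap between groups on the minus strand was therefore not seen on the plus strand in the library that had both. At the 5 exon A/B CpGs with at least 10 reads on each strand in all 6 libraries, the plus strand averaged 67.1% ± 10.2 and the minus strand 49.3% ± 24.8 (SD over 6 libraries). The plus strand was higher in 4 of 6 libraries (exact sign-flip permutation p = 0.1875), and the part of strand in the levels above was not tested.

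**Figure D3:**
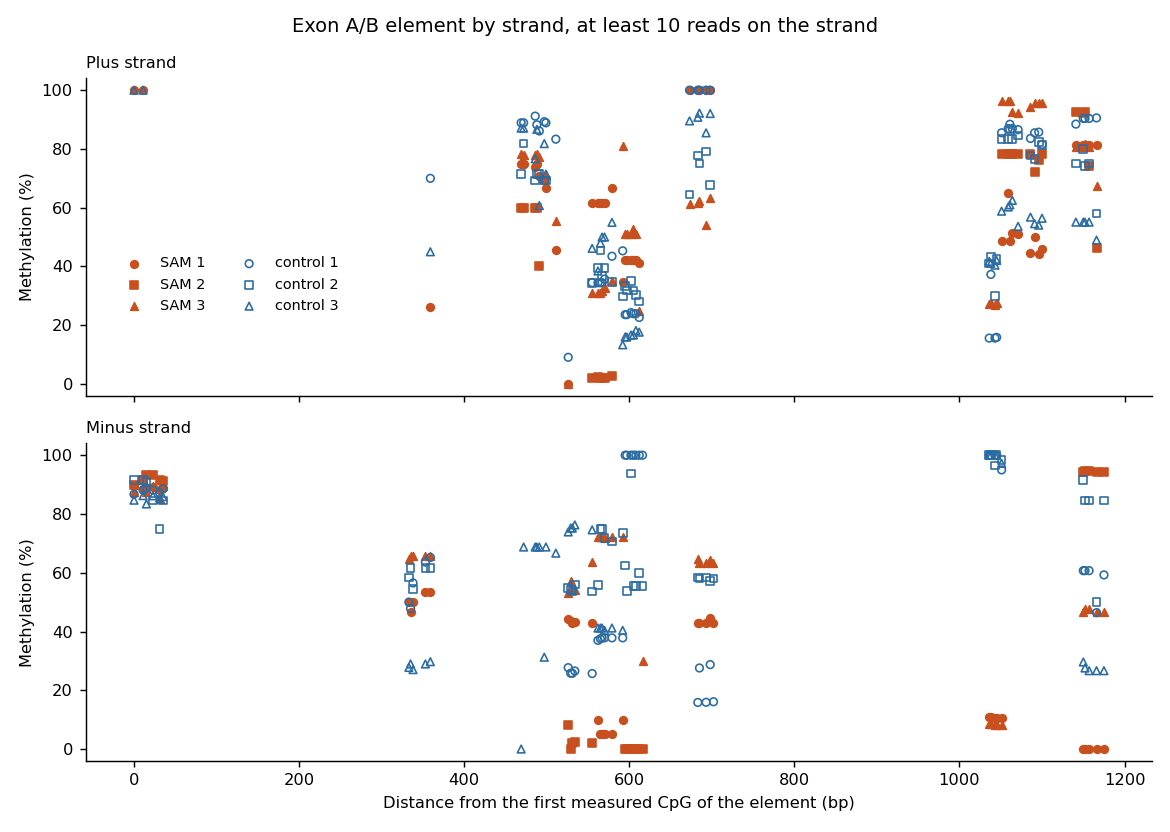
Methylation (%) of exon A/B CpGs against distance in bp from the first measured CpG of the element, on the plus strand (upper panel) and the minus strand (lower panel), for values with at least 10 reads on that strand, with filled symbols for SAM and open symbols for control libraries. The minus-strand run at 57464788 to 57464803 lies at 10.6 and 8.24% in SAM replicates 1 and 3 and near 99% in the 3 controls, while other runs spread widely within a library.

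A sharp border lay at the start of the GNAS promoter element. The 8 members from 57465391 to 57465448 averaged 84.6%, and 276 bp downstream the 6 members from 57465724 to 57465761 averaged 5.33%, a step of -79.3 points between neighbouring clusters. SAM replicate 2 was below 10 reads at each CpG of the downstream cluster, so the 2 averages cover differing libraries. Upstream of the border, the 8 CpGs read 81.1, 86.6 and 83.4% in SAM replicates 1 to 3, against 86.4, 85.1 and 85.3% in control replicates 1 to 3. All 54 members downstream, to 57467664, were under 20%, the highest at 8.82%, and 31 of them had no methylated read in any library. These 54 CpGs held 195 methylated reads of 21012. The 23 shared by all libraries averaged 0.535% ± 0.555 with SAM, against 0.602% ± 0.363 in controls (SD, n = 3 each), so both groups were almost free of methylation there. CpG 57465426, the highest of the element, read 82.8, 87.6 and 86.7% in SAM replicates 1 to 3, against 88.9, 87.9 and 87.9% in control replicates 1 to 3. CpG 57466745 was at 0% in all 6 libraries, with 10 to 92 reads each. The clusters were set by gaps of more than 100 bp after the data were seen, so no test was made between them.

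Outside the named elements, 5 members from 57443952 to 57444003 averaged 74.6% in the 4 libraries that covered them, and 5 from 57471074 to 57471122 averaged 95.7, 96.2 and 97.0% in SAM replicates 1 to 3, against 96.2, 98.9 and 95.7% in control replicates 1 to 3. The second cluster lies downstream of the unmethylated promoter and was almost fully methylated in all libraries, with 57471122 the highest of its shared CpGs and 57471098 the lowest.

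The mean methylation of the complex with SAM was within the spread between libraries. The mean of the 153 shared CpGs was 57.7, 56.5 and 61.6% in SAM replicates 1 to 3, against 60.8, 63.3 and 60.3% in control replicates 1 to 3, and the groups overlapped. The difference, SAM minus control, was -2.92 points (SE 1.81; exact two-sided permutation p = 0.3, n = 3 each), where the smallest p the design allows is 0.1. It was -2.91 points within coverage batch A and -4.30 points within batch B.

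XLas was the 1 element whose groups did not overlap. Its 36 shared CpGs averaged 61.7, 64.9 and 64.9% in SAM replicates 1 to 3, against 65.2, 68.4 and 70.6% in control replicates 1 to 3. The difference was -4.23 points (SE 1.89), with an exact permutation p of 0.1, the smallest possible, and 0.6 after Benjamini-Hochberg adjustment over 6 elements. It was -6.17 points within batch A and -3.49 points within batch B. With at least 20 reads per CpG, which left 16 CpGs, it was -5.84 points (exact permutation p = 0.2), and the groups overlapped. Weighting CpGs by their reads gave -0.70 points, also with overlapping groups.

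In the other elements the groups overlapped. Exon A/B averaged 54.0, 49.7 and 69.8% in SAM replicates 1 to 3, against 65.0, 68.4 and 55.8% in control replicates 1 to 3, a difference of -5.23 points (SE 7.17; exact permutation p = 0.5, adjusted 0.75). Leaving out each library moved this difference between -11.2 points (without SAM replicate 3) and -1.17 points (without SAM replicate 2), and it was -8.87 without control replicate 3 and -10.8 with at least 20 reads per CpG. NESP55 differed by -1.74 points (SE 2.09; exact permutation p = 0.5, adjusted 0.75), with 1.54 points within batch A and -4.21 points within batch B. GNAS-AS1 averaged 87.8% ± 4.21 with SAM, against 88.2% ± 0.737 in controls (SD, n = 3 each), and its difference of -0.44 points became 1.38 without SAM replicate 2. The GNAS promoter averaged 22% ± 0.731 with SAM, against 22.5% ± 0.206 in controls (SD, n = 3 each; exact permutation p = 0.3, adjusted 0.75). The 5 CpGs in the rest of the window differed by -0.64 points (exact permutation p = 0.9, adjusted 0.9).

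**Figure D4:**
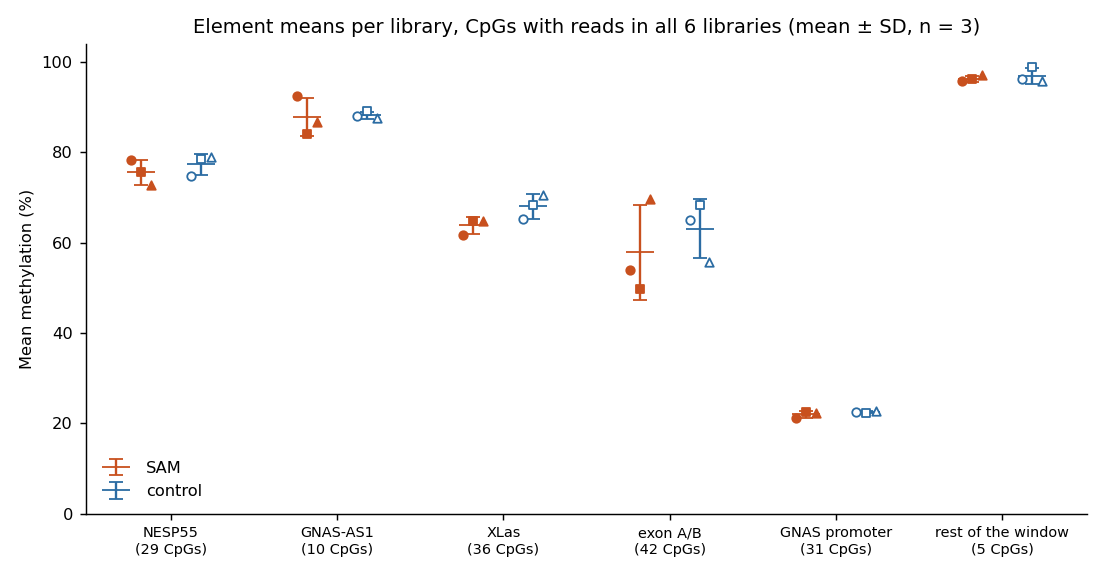
Mean methylation (%) of the CpGs with at least 10 reads in all 6 libraries in each element, for SAM (filled) and control (open) replicates 1 to 3, with the group mean and SD (n = 3). The groups separate in XLas, at 61.7 to 64.9% with SAM and 65.2 to 70.6% in controls, and SAM replicates spread from 49.7 to 69.8% in exon A/B.

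No CpG or tile of the complex passed the test for a SAM difference. Of the 211 members tested with edgeR's quasi-likelihood method, 0 had a Benjamini-Hochberg adjusted p under 0.05, where 0.000611% of the 490928 CpGs tested in the series did, and the smallest adjusted p in the complex was 0.963. At an unadjusted p under 0.05 there were 9, where 3.14% of the series had one. The other 32 members had no methylated or no unmethylated read and were not tested. Of the 16 tiles of 1 kb tested, 0 were called, as in the series as a whole (0% of 56687), and 0 had an unadjusted p under 0.05. With limma 0 of 139 CpGs and 0 of 15 tiles were called, with 6 CpGs and 0 tiles at an unadjusted p under 0.05, where over the series limma called 0 and had 8996 of 257696 CpGs and 1492 of 39646 tiles at an unadjusted p under 0.05. A binomial logistic model, which takes counting error as the only noise, called 62 of 211 CpGs, 18 of them higher with SAM, where it called 22.2% of the series. That model called 7 of 16 tiles, 2 of them higher with SAM, where it called 34.6% of the series.

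SAM values lay apart from control values at 22 of the 153 shared CpGs (14.4%), 8 higher and 14 lower with SAM, where 4.90% of all 336571 shared CpGs did, 2.70% higher and 2.19% lower. The share over the series was higher at intermediate levels. Among CpGs at 20 to 80% the groups did not overlap at 13 of 84 in the complex (15.5%), 2 higher and 11 lower, where 9.99% of 45007 did, 4.69% higher and 5.30% lower. By element, higher and lower with SAM, these CpGs numbered 1 and 4 in NESP55, 1 and 0 in GNAS-AS1, 3 and 8 in XLas, 2 and 1 in exon A/B, and 1 and 1 in the GNAS promoter. Mean levels with SAM were higher at 49, lower at 90 and equal at 14 of the 153 CpGs, with a median difference of -1.23 points, against 39.5% higher, 37.0% lower and a median of 0 over all shared CpGs. At 20 to 80% they were higher at 25 and lower at 59 of 84, with a median of -4.35 points, against 47.9% higher, 52.1% lower and a median of -0.43 over all 45007. Neighbouring CpGs were read by the same reads, so these counts are not of independent sites.

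**Figure D5:**
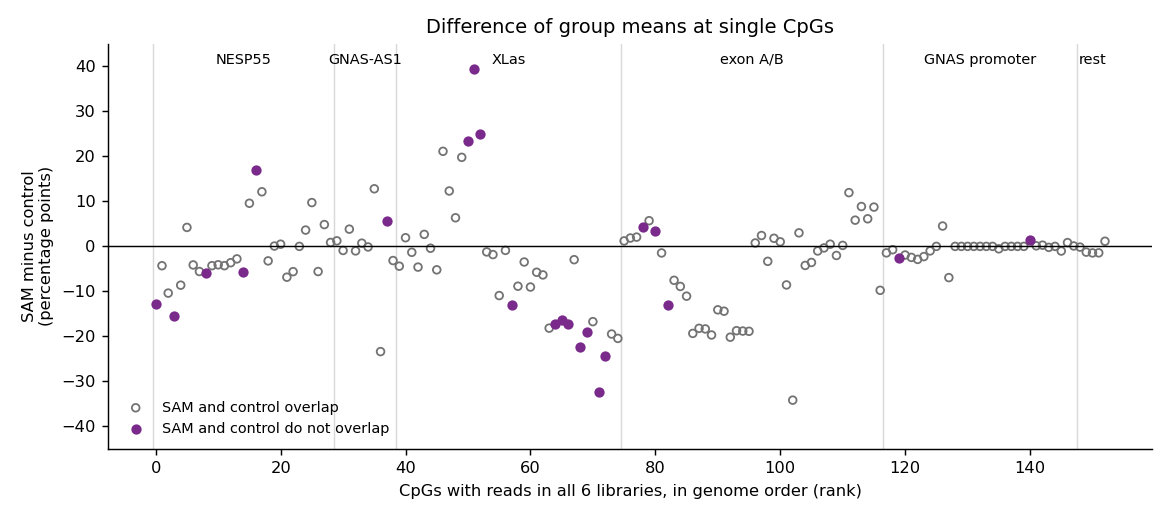
Difference of group means, SAM minus control in percentage points, for the 153 CpGs with at least 10 reads in all 6 libraries in genome order, with filled points where SAM and control values do not overlap. XLas holds both the highest point, 39.3 points, and 7 filled points between -16.4 and -32.5 points in its later clusters.

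The CpGs with the largest differences lay in XLas and exon A/B, and they went in both directions within XLas. CpG 57429643 read 87.4, 85.4 and 80.7% in SAM replicates 1 to 3, against 34.2, 54.3 and 46.9% in control replicates 1 to 3, with SAM above control throughout. Its difference was 39.3 points (SE 6.20), with 46.8 points within batch A and 28.7 within batch B, and edgeR's Benjamini-Hochberg adjusted p was 0.963. CpG 57429649, 6 bases away and read by nearly the same number of reads, was at 100, 97.6 and 94.7% in SAM replicates 1 to 3, against 72.3, 80.3 and 64.7% in control replicates 1 to 3. Its difference was 25.0 points (SE 4.76), 31.5 within batch A and 15.8 within batch B, with the smallest edgeR p of the shared CpGs (Benjamini-Hochberg adjusted p of 0.963). Farther downstream, at the shared CpGs 57431041 to 57431083, the direction was the opposite. CpG 57431060 read 44.9, 53.8 and 61.9% in SAM replicates 1 to 3, against 88.7, 80.6 and 88.7% in control replicates 1 to 3, a difference of -32.5 points (SE 5.59), with -43.8 within batch A and -22.8 within batch B. Control replicates 1 and 3 alone had at least 10 minus-strand reads there, and on the plus strand by itself the 3 controls read 86.0, 80.6 and 90.2%. CpG 57431069 read 28.0, 40.7 and 62.8% in SAM replicates 1 to 3, against 70.6, 63.3 and 70.5% in control replicates 1 to 3, a difference of -24.3 points, with -42.5 within batch A and -11.6 within batch B. Here too only control replicates 1 and 3 had at least 10 minus-strand reads. On the plus strand by itself the 3 controls read 63.0, 63.3 and 66.1%, just above SAM replicate 3. In exon A/B, CpG 57464803 read 30.4, 78.3 and 41.4% in SAM replicates 1 to 3, against 87.6, 94.7 and 70.2% in control replicates 1 to 3, and the groups overlapped. Its plus strand alone read 48.8, 78.3 and 96.2% in SAM replicates 1 to 3, against 85.5, 83.3 and 58.8% in control replicates 1 to 3. Its minus strand read 10.5 and 8.05% in SAM replicates 1 and 3, with SAM replicate 2 below 10 reads. In control replicates 1 to 3 that strand read 95.0, 98.3 and 97.2%. Near the end of the GNAS promoter, CpG 57467610 was at 1.28, 1.33 and 1.79% in SAM replicates 1 to 3, against 0.389, 0 and 0% in control replicates 1 to 3, on 75 to 548 reads with SAM and 33 to 459 in controls. It was named for its edgeR p of 0.0299 (Benjamini-Hochberg adjusted p of 0.963), since its difference was only 1.34 points.

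In 1 kb tiles the lower values of XLas appeared and the higher ones did not. The tile chr20:57431001-57432000, with 8 shared CpGs of XLas, read 42.8, 45.5 and 61.9% in SAM replicates 1 to 3, against 73.8, 64 and 71.6% in control replicates 1 to 3. It lay -19.7 points lower with SAM (SE 6.68), with -29.9 within batch A and -10.2 within batch B, and edgeR's Benjamini-Hochberg adjusted p was 1. From 57431041 to 57431093 only control replicates 1 and 3 had at least 10 minus-strand reads, which averaged 93.75% in each. Their joined values thus hold highly methylated minus-strand reads that the SAM libraries and control replicate 2 lacked. On the plus strand by itself the groups did not overlap at 57431041, 57431048, 57431060 and 57431069. They overlapped at the other shared CpGs of the tile, as in the joined values. At 57431041 that strand read 36.0, 45.8 and 58.2% in SAM replicates 1 to 3, against 63.8, 65.5 and 66.9% in control replicates 1 to 3. The part of strand in the difference of the tile was not tested. Over all 16 members of this tile, read in differing numbers of libraries, the levels were 42.6, 45.5 and 47.7% in SAM replicates 1 to 3, against 58.8, 47.0 and 54.2% in control replicates 1 to 3, and the groups overlapped. Among the members past the shared CpGs, 57431104, 57431134 and 57431141 had higher means with SAM, by 17.0, 13.9 and 9.03 points. There 57431093 and 57431126 differed by -11.8 and -2.53 points. The members before the shared CpGs, 57431005, 57431012 and 57431033, differed by -20.8, -13.4 and -1.35 points. The neighbouring tile, chr20:57430001-57431000, with 3 CpGs, read 68.2, 42.5 and 67.6% in SAM replicates 1 to 3, against 74.2, 80 and 75% in control replicates 1 to 3, a difference of -17.0 points. Without SAM replicate 2 it was -8.51 points. The tile before these, chr20:57429001-57430000, with 25 shared CpGs and among them 57429643 and 57429649, had a difference of 2.26 points and overlapping groups. In exon A/B, the tile chr20:57463001-57464000 read 88.8, 91.9 and 88.5% in SAM replicates 1 to 3, against 87.9, 86.4 and 85.4% in control replicates 1 to 3, higher by 3.12 points. These 3 of 15 tiles (20%) had groups that did not overlap, 1 higher and 2 lower with SAM, where 9.09% of 33979 tiles did, 5.21% higher and 3.88% lower. Among tiles at 20 to 80% the count was 2 of 7 (28.6%), both lower with SAM, where 9.93% of 6263 did, 4.73% higher and 5.21% lower. The remaining 12 tiles overlapped between groups, with differences of -7.87 to 2.47 points.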

How the data were processed

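CpG methylation of 6 PC-3 genomic DNA libraries was analysed. Each deposited list gives, per the file headers, cytosine positions, the read count covering each (coverage), and which percent of these carried C or T. Bismark 0.7.4, methylKit 0.5.3, CASAVA 1.8.2, FastQC 0.10.0 and hg19 are named per the submitters' processing notes, with no role or order, and the sources used here state no read filter and no duplicate removal. The lowest coverage in every deposited list was 10 reads.

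Methylated reads were taken as coverage times percent C, rounded, and the minus-strand C was joined to the plus-strand C 1 base before it. Element means weighted CpGs equally and were compared between groups with exact permutation tests over libraries, and within libraries with sign-flip tests. Over all CpGs and 1 kb tiles of the genome, methylated and unmethylated counts were tested with edgeR 4.0.16 (quasi-likelihood, Benjamini-Hochberg adjustment), with limma 3.58.1 and a binomial logistic model as alternatives, after the scripts were tested on simulated data. R 4.3.3, Python 3.11.15, numpy 2.4.6 and pandas 2.3.3 were used. Coverage batches were found from 49341 windows of 1 kb, where the mean correlation within the 2 sets was 0.349 and that of the next best split 0.0039. CpGs were named by a rule, namely the highest and the lowest of each element, the 3 with the smallest edgeR p and the 5 with the largest differences among those read in all 6 libraries. The members, elements, lists and tests were chosen with earlier results of these data known. Reads copied in amplification cannot be told from independent molecules, so read numbers cover counting error only.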

Additional observations from a re-analysis of the deposited data

How the results depend on the processing

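The mean of the complex kept its sign under 12 alternatives and the element means under 66 of 72, while no p of these could pass 0.05, because the exact test of 3 against 3 libraries cannot go below 0.1 and that of 3 pairs below 0.25. NESP55 gave 1.54 points within coverage batch A, GNAS-AS1 gave 4.59 within batch A against -3.57 within batch B, 1.38 without SAM replicate 2 and 0.0581 without SAM replicate 3, the GNAS promoter gave 0.0728 within batch B, and the rest of the window gave 0.354 without control replicate 2. Leaving out each library gave -2.74 to 1.38 points for GNAS-AS1 and -1.25 to 0.354 for the rest of the window, and with unchanged sign -4.43 to -1.86 for the complex, -3.11 to -0.32 for NESP55, -5.66 to -2.96 for XLas, -11.2 to -1.17 for exon A/B and -0.77 to -0.12 for the GNAS promoter. Weighting by reads gave -1.52 for the complex, -1.37 for exon A/B and -3.21 for the GNAS promoter. With 5 libraries the sign-flip test cannot go below 0.0625, so by construction the comparisons over 6 libraries lost significance. Their values then ran from 31.3 to 33.6 points for the share of CpGs at 20 to 80%, from 20.9 to 22.3 for the mean level, from 11 to 12.1 for GNAS-AS1 minus NESP55, from -23.1 to -20.3 for XLas minus GNAS-AS1, and from -40.4 to -36.4 for GNAS promoter minus exon A/B. At 20 reads, exon A/B minus XLas was -15.4 and GNAS promoter minus exon A/B -5.21, with fewer CpGs left. Limiting the GNAS promoter to CpGs past the sharp drop, an alternative chosen after seeing the data, gave -59.9. By the logistic model 62 CpGs and 7 tiles passed, where edgeR called 0.

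Same-numbered SAM and control libraries had correlations of -0.0051, 0.0085 and -0.0079 in their deviations from the group means. Differently numbered libraries of the same coverage batch were also near 0, at 0.0242 for SAM replicate 1 with control replicate 3. The value was 0.0110 for SAM replicate 3 with control replicate 2. These correlations did not reflect the coverage batches, so they cannot decide whether replicate numbers pair the libraries. With the number as a replicate block the mean difference of the complex was -2.92 points (exact sign-flip permutation p = 0.5, n = 3 pairs) and edgeR called 0 CpGs and 0 tiles.

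Depth limits single CpGs of SAM replicate 2 and control replicate 2 most. Differences at the 6 CpGs named for a small p or a large difference, recomputed after the data were seen, moved by more than the replicate SD in 5 of 48 cases, and their direction is partly fixed by that choice. Other named CpGs changed sign between batches A and B, with 12.4 and -9.89 points at 57417122, 14.4 and -25.8 at 57464364, and -3.57 and 9.32 at 57429310.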

Other observations

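Further stretches differed widely between libraries and were chosen after their values were seen. At XLas CpGs 57429454, 57429466 and 57429469, which were not read in all libraries, SAM replicate 2 was at 0% on 12 to 13 reads. At 57429454, SAM replicate 3 and control replicates 2 and 3 were at 100%, and control replicate 1 was at 45.5%. At 57429466, SAM replicate 3 was at 24.2%, and control replicates 1 to 3 were at 46.7, 100 and 89.5%. On the minus strand of exon A/B from 57464902 to 57464927, SAM replicates 1 to 3 averaged 0, 94.5 and 47.2%, and control replicates 1 to 3 averaged 57.6, 79.1 and 27.4%. On its plus strand from 57464425 to 57464450, SAM replicates 1 and 3 averaged 100 and 60.5%, with SAM replicate 2 below 10 reads, and control replicates 1 to 3 averaged 100, 72.8 and 90.0%.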
